A study of Mus musculus with 72 samples.

Results

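The genes described here are 7 transcriptional regulators that act downstream of the circadian clock: the PAR-bZIP activators Dbp, Tef and Hlf, the bZIP repressor Nfil3, the basic helix-loop-helix repressors Bhlhe40 and Bhlhe41 (also called Dec1 and Dec2), and the repressor Ciart (also called Chrono). They were chosen by gene symbol, each symbol had 1 row among the 24883 rows of the expression tables, and all 7 passed the filter on low values. RNA of the suprachiasmatic nucleus (SCN), the hypothalamic pacemaker that light entrains, was sequenced in 72 libraries from male C57BL/6 mice that were 8 weeks old when the study began. The mice were kept under 12 h of light and 12 h of darkness (LD) or in constant darkness (DD) for 1 week, and then for 2 more weeks under the same lighting on a nitrogen-matched control diet (Ctrl) or a diet depleted of tryptophan (-Trp), both offered ad libitum. The 4 groups (Ctrl and -Trp in LD, Ctrl and -Trp in DD) each held 3 libraries at 6 time points 4 h apart, given as zeitgeber time (ZT) in LD and circadian time (CT) in DD. No transgene or mutation was involved, and the design asks how the lighting and dietary tryptophan bear on the rhythms and levels of these genes in the SCN.

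In the clock, CLOCK and BMAL1 (encoded by Arntl) activate genes through E-boxes, and the PER and CRY proteins, which they induce, feed back to inhibit them. DBP, TEF and HLF are activators that bind D-boxes, and NFIL3 (also called E4BP4) represses from the same element, so the rising and falling phases of D-box genes depend on both. BHLHE40, BHLHE41 and CIART repress transcription driven by CLOCK and BMAL1 and are themselves E-box targets. REV-ERBα (Nr1d1) and the ROR proteins act on response elements (ROREs), among others in Arntl and Nfil3. Dbp is a commonly used reporter of clock output, with a peak in the subjective day in the SCN.

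The 7 genes lie on 6 chromosomes in GRCm38 (mm10; GENCODE M21): Dbp at chr7:45705088-45710203 on the plus strand, Tef at chr15:81802421-81826863 (plus), Hlf at chr11:90336536-90390895 (minus), Nfil3 at chr13:52967209-52981073 (minus), Bhlhe40 at chr6:108660629-108666925 (plus), Bhlhe41 at chr6:145858243-145865558 (minus) and Ciart at chr3:95878503-95882251 (minus). RefSeq promoter windows of GRCm38.p6, each of 300 bases (250 before to 50 after an annotated start), were available for 6 of the 7 genes, with 2 windows for Tef. They were searched on both strands for the E-box CACGTG, which reads the same on both, the E-box variant CACGTT, the D-box as TTATGTAA or TTACGTAA, the RORE core TAGGTCA and the cAMP response element (CRE) TGACGTCA. Because many of the 7 genes are known E-box targets, stretches upstream of an annotated start that hold a motif are printed 5′ to 3′ with the motif in capitals. The Ciart stretch is chr3:95882252-95882478 (minus strand) with 3 E-boxes, that of Tef is chr15:81811164-81811413 (plus) with an E-box before the downstream of its starts, and that of Bhlhe41 is chr6:145865559-145865670 (minus) with an E-box. The Tef stretch lies within the annotated gene but outside its annotated exons. The stretch of Hlf, chr11:90390918-90391167 (minus), holds a CRE, and that of Nfil3, chr13:52981040-52981069 (minus), is limited to 30 bases around a RORE read on the reverse strand, which lies in the annotated first exon.
Ciart: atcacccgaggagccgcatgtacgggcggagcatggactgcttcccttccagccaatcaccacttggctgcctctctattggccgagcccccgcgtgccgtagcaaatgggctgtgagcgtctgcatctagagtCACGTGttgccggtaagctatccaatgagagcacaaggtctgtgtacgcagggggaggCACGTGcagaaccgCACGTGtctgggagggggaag
Tef: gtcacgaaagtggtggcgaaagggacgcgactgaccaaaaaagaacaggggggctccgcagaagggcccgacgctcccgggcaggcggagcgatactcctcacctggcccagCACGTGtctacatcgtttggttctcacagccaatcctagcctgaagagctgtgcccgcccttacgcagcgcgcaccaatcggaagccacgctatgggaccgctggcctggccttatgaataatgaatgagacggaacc
Bhlhe41: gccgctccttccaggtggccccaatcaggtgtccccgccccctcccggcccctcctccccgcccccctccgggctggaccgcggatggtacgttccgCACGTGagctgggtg
Hlf: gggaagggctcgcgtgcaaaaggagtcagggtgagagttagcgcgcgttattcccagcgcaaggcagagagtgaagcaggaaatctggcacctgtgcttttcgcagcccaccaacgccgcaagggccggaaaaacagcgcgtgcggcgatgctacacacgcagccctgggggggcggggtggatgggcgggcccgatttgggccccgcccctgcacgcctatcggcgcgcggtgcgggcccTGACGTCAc
Nfil3: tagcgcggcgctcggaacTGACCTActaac
Ciart carried 3 copies of the E-box, of which the more upstream ones began at positions -116 and -58 relative to the start, and 29 of 32851 windows genome-wide (0.0883%) held that many. At least 1 E-box was found in 7.15% of all windows, among them the windows of Ciart and Bhlhe41 and both windows of Tef. The RORE of the Nfil3 window is a motif of 2.61% of all windows and the CRE of Hlf a motif of 1.79%. The windows of Dbp held none of these letters, and no member's window held the E-box variant (4.68% of windows) or a D-box (0.938% for TTATGTAA and 0.119% for TTACGTAA). A match is only a string of letters, and these windows say nothing of elements outside them.

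Expression was deposited as FPKM (fragments per kilobase of transcript, scaled to the mapped fragments of the library), which is per length, so that levels can be set side by side between genes. Read numbers were not given, the depth per library is unknown, and the error of each value is taken from how far the 3 libraries of 1 time lie apart. Per the study, the 3 libraries of a time point stand for 3 mice. Libraries were placed in groups and times in the column order of the study's supplementary table of oscillating genes: 36 control libraries equal its values (in 1987 genes for Ctrl LD and 135 for Ctrl DD, to a relative tolerance of 0.0001), and the 36 -Trp libraries follow by continuing the same shift of 12 columns. The deposited column names give another order, in which every time point keeps its 3 libraries but stands 16 h away and in another group. Results are given in the first order, and those by column name follow the tests of rhythms, levels and single time points. Which order is right was not tested, but the values differ in kind. By column name the diets differed in 49.0% to 59.6% of genes at 0 to 12 h, but in at most 0.00692% at 16 and 20 h. The libraries so compared at 0 to 12 h are LD against DD in the first order. Those compared at 16 and 20 h share a lighting there. In the first order the diets differed in at most 8.70% of genes at any time. The summed FPKM of the libraries then parted by lighting, but for -Trp DD 4 h replicate 2. By column name most of these tests also called far more of all genes, and that share is given beside the members.

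Libraries differed in cell markers and in scale. In all 4 groups 10 of 10 SCN markers were detected, and their summed FPKM was 166 to 1039 (median 434) in 70 libraries, but 45.7 in Ctrl DD 12 h replicate 1 and 60.6 in -Trp LD 20 h replicate 3. Most of this sum is Avp, with a mean of 388.5 FPKM over the 72 libraries. In Ctrl DD 12 h replicate 1, Avp (18.5 FPKM), Six6, Lhx1, Vipr2, Rgs16 and Gpr176 were at their lowest of all libraries. Vip was not low there, at 17.64 FPKM against a mean of 16.96. In these 2 libraries 6 markers of other hypothalamic neurons summed to 36.9 and 289, against at least 866 elsewhere, and 5 oligodendrocyte markers to 2922 and 2113, against 751 to 2920. Calls of members that changed without either of them are given both ways. The summed FPKM of a library was above 400000 in all 36 LD libraries and below it in 35 of 36 DD libraries (the exception is -Trp DD 4 h replicate 2), so the lighting and this technical range cannot be told apart. In bulk tissue, fewer cells of a type and less RNA per cell cannot be told apart either.

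By level, the PAR-bZIP gene Tef was the most abundant of the 7, with a mean of 66.0 FPKM over the 72 libraries (50.02 to 87.8). Dbp followed at 22.2 FPKM (8.81 to 43.2), Bhlhe40 at 17.1 FPKM (11.7 to 23.4) and Hlf at 12.5 FPKM (8.12 to 22.3). Ciart, at 7.37 FPKM (4.82 to 11.0), and Bhlhe41, at 7.33 FPKM (3.23 to 9.14), were level with each other, and Nfil3 was lowest at 4.14 FPKM (2.42 to 6.95). The libraries of neighbouring genes in this order overlapped throughout except for those of Tef, all of which lay above every library of the other 6 genes. Relative to its mean, the range over the libraries was widest for Dbp and narrowest for Tef.

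In Ctrl LD, 4 of the 7 genes, Dbp, Ciart, Bhlhe41 and Nfil3, passed the study's criterion for oscillation (JTK_CYCLE, a rank test of a 24 h rhythm with an exact null distribution, p under 0.05), which 7.11% of all rows passed. The JTK_CYCLE shares here and below are over all 24883 rows, with no filter on low values. The share among genes above the limma filter is not given here. Dbp showed the deepest rhythm of the family. Its FPKM was 14.0, 18.4 and 17.4 at ZT0, then 21.5, 28.7 and 34.8 at ZT4, then 31.7, 35.1 and 39.4 at ZT8. It was 39.8, 34.9 and 34.0 at ZT12, 21.1, 20.3 and 23.7 at ZT16, and 16.5, 15.4 and 16.7 at ZT20. The libraries of ZT8 and ZT12 were high, those of ZT20 and ZT0 low, and the libraries of ZT12 did not overlap with those of ZT20. The means of these times were 36.2 ± 3.12 and 16.2 ± 0.707 (SD, n = 3), a ratio of 2.24. The JTK_CYCLE p of Dbp was 6.47e-06 (0.0229 after Benjamini-Hochberg adjustment over all rows). A cosine of 24 h fitted with limma gave an amplitude of 0.65 ± 0.05 (SE) on the log2 scale and a peak at 9.32 ± 0.323 h, with an adjusted p of 2.09e-05, the second smallest p of 14199 genes.

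Ciart ran in parallel with Dbp at a smaller amplitude. Its FPKM was 5.06, 6.17 and 6.48 at ZT0, 7.57, 7.86 and 9.33 at ZT4, and 8.04, 9.85 and 9.49 at ZT8. It was 9.81, 8.55 and 8.45 at ZT12, 6.26, 5.87 and 7.29 at ZT16, and 5.56, 5.26 and 5.75 at ZT20. All libraries of ZT4 to ZT12 were above all of ZT16 to ZT0, and the mean at ZT8, 9.12 ± 0.955, was 1.65 times that at ZT20, 5.52 ± 0.246 (SD, n = 3). The JTK_CYCLE p was 2.13e-05 (0.0312 adjusted), and the limma cosine had an amplitude of 0.38 ± 0.04 with a peak at 8.70 ± 0.399 h and an adjusted p of 0.000284, the fourth smallest p of all genes tested. The limma cosine passed the adjusted threshold in 0.725% of genes, and Dbp and Ciart were the members among them. By column name JTK_CYCLE called Dbp, Ciart, Nfil3 and Tef in Ctrl LD, where 37.8% of all rows passed, and the cosine of Dbp peaked at 2.09 ± 0.691 h.

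Nfil3, the repressor that shares the D-box with the PAR-bZIP proteins, was high when Dbp was low. In Ctrl LD its FPKM was 4.83, 5.72 and 6.02 at ZT0, 4.68, 4.60 and 5.05 at ZT4, and 4.54, 4.56 and 3.92 at ZT8. It was 3.86, 4.00 and 3.90 at ZT12, 5.86, 5.27 and 6.50 at ZT16, and 4.42, 5.18 and 5.44 at ZT20. The libraries of ZT16 did not overlap with those of ZT12, and the ratio of their means (5.87 ± 0.614 and 3.92 ± 0.0696; SD, n = 3) was 1.5. The JTK_CYCLE p was 0.0340 and fell short of the threshold in 9 of the 18 fits that left out 1 library. The limma cosine peaked at 21.0 ± 1.08 h with an amplitude of 0.19 ± 0.05 and an adjusted p of 0.190. Over the 6 time means, r between Dbp and Nfil3 was -0.821 in Ctrl LD and that between Dbp and Ciart 0.987, given as a description since the values come from the same libraries.

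Among the E-box repressors of the DEC family, Bhlhe41 had its highest mean at ZT12 (8.58, 8.57 and 8.23 FPKM) and its lowest at ZT20 (7.0, 6.21 and 7.35 FPKM), without overlap and with a ratio of 1.23. Its JTK_CYCLE p was 0.0147, lost in 3 of 18 fits without 1 library. Bhlhe40, at 14.5, 22.5 and 19.0 FPKM at ZT8 and 15.4, 13.9 and 15.1 FPKM at ZT20, had overlapping libraries and a p of 0.0724. Both had their cosine peak near that of Dbp (9.99 ± 1.04 h and 9.91 ± 1.23 h), with limma adjusted p-values of 0.173 and 0.259. The PAR-bZIP genes Tef and Hlf did not pass in Ctrl LD: their JTK_CYCLE p-values were 0.217 and 0.458, and their highest and lowest time means differed 1.11- and 1.24-fold. The 3 activators of D-box genes thus had unequal rhythms in the same libraries, with cosine amplitudes of 0.65 ± 0.05 for Dbp, 0.06 ± 0.03 for Tef and 0.08 ± 0.04 for Hlf (log2, SE), against a median of 0.08 over all genes.

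**Figure D1:**
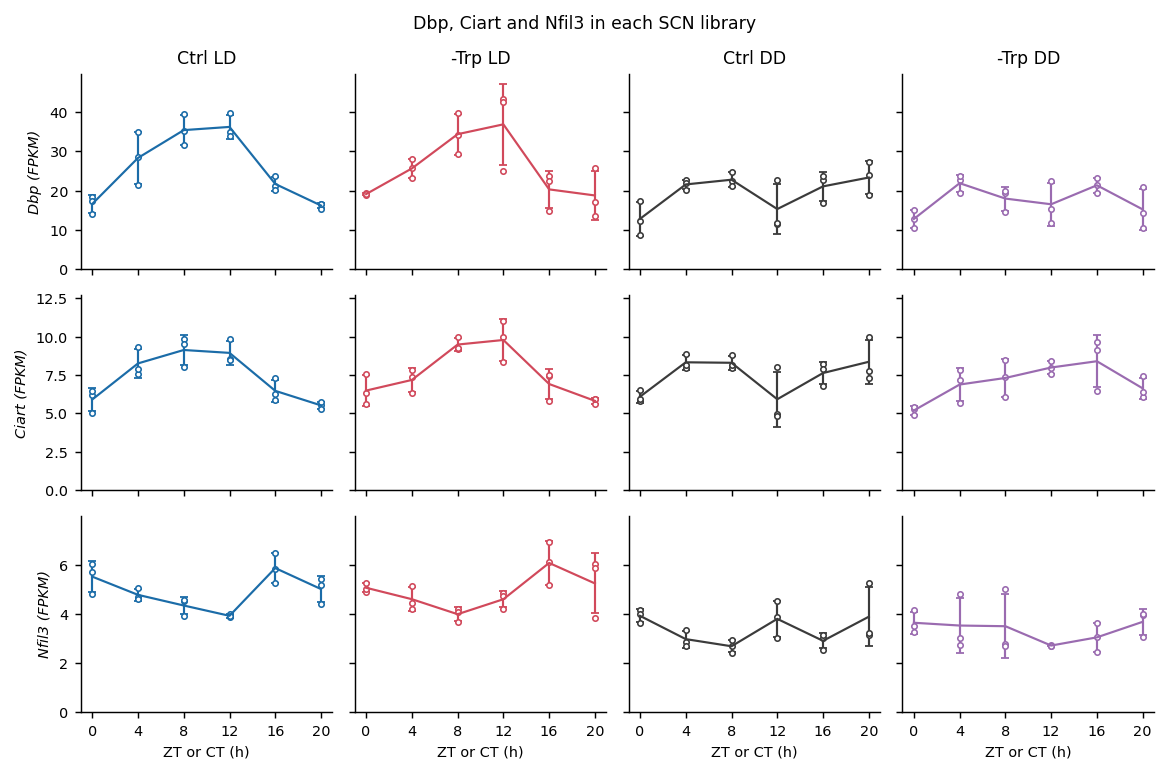
FPKM (vertical axes, from 0) of Dbp, Ciart and Nfil3 against ZT or CT in hours in each of the 4 groups, with open points for libraries, lines through the means and bars of 1 SD (n = 3 per time). In both LD groups Dbp and Ciart are highest at 8 or 12 h (Ctrl LD means of Dbp 36.2 at 12 h and 16.2 at 20 h) while Nfil3 is highest at 16 h, and in Ctrl DD Dbp and Ciart are low at 0 and 12 h.

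On the -Trp diet in LD, 4 of 7 genes passed JTK_CYCLE (7.42% of all rows did): Ciart, Dbp and Nfil3 again, and Tef. Dbp was at 18.8, 19.4 and 19.1 FPKM at ZT0, 28.1, 25.6 and 23.3 at ZT4, 34.1, 29.3 and 39.7 at ZT8, 24.9, 43.2 and 42.5 at ZT12, 23.7, 14.9 and 22.4 at ZT16, and 13.5, 17.0 and 25.8 at ZT20. The order of the times was like that of Ctrl LD, but the 3 libraries were further apart at ZT12 to ZT20, and ZT12 and ZT20 overlapped by 1 library each. The JTK_CYCLE p of Dbp was 0.00139, and the limma amplitude 0.52 ± 0.10 with a peak at 9.19 ± 0.75 h (adjusted p = 0.0209, and 0.0620 without -Trp LD 20 h replicate 1). Without the library low in SCN markers, -Trp LD 20 h replicate 3, the amplitude of Dbp remained past the threshold. Ciart was at 9.20, 9.27 and 9.97 FPKM at ZT8 and 8.35, 9.95 and 11.0 at ZT12, against 5.92, 5.59 and 5.96 at ZT20, with no overlap. Its JTK_CYCLE p was 0.000412, its limma amplitude 0.35 ± 0.05 with a peak at 9.71 ± 0.607 h, and its adjusted p 0.00532. In this group the limma cosine passed in 2.75% of genes, and again Dbp and Ciart were the members that did.

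Nfil3 in -Trp LD was lowest at ZT8 (3.67, 4.21 and 4.08 FPKM) and highest at ZT16 (6.95, 6.13 and 5.17 FPKM), which did not overlap and differed 1.53-fold. Its JTK_CYCLE p was 0.00576 and the limma adjusted p 0.0851, or 0.00965 without -Trp LD 20 h replicate 3, where Nfil3 was at 3.83 FPKM against 6.03 and 5.87 in the other libraries of that time. Tef, which did not pass in Ctrl LD, was at 57.8, 57.1 and 61.4 FPKM at ZT4 and 75.5, 69.7 and 75.1 FPKM at ZT16. At ZT20 it was at 71.4, 66.4 and 87.8 FPKM, of which the highest is the library low in SCN markers. The JTK_CYCLE p of Tef was 0.00291, at most 0.0118 with any 1 library left out, and its limma amplitude was 0.18 ± 0.05 with a peak at 17.0 ± 1.02 h (adjusted p = 0.109). Bhlhe41, Bhlhe40 and Hlf did not pass the exact JTK_CYCLE test in -Trp LD (p = 0.115, 0.543 and 1).

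The rhythms themselves were then compared between the diets in LD, by testing the difference of the fitted cosines in limma. None of the 7 genes passed, as none of 14202 genes did (0% called, 456 at an unadjusted p under 0.05). The 7 members had unadjusted p-values from 0.0970 (Tef) to 0.568 (Dbp), so that the JTK_CYCLE calls that differ between the diets, Tef and Bhlhe41, are not shown to differ by this test. The peak of Ciart was 8.70 ± 0.399 h on the Ctrl diet and 9.71 ± 0.607 h on the -Trp diet, and that of Dbp 9.32 ± 0.323 h and 9.19 ± 0.75 h (SE). Read by column name, the same test of the diets in LD called 4 of the 7 genes and 52.0% of all genes. JTK_CYCLE then called none of the 7 in -Trp LD, where 2.48% of all rows passed.

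In constant darkness on the Ctrl diet no rhythm of the family was called. None of the 7 genes passed JTK_CYCLE in Ctrl DD (4.92% of all rows did), and none passed the limma cosine (0% of genes, 1195 at an unadjusted p under 0.05). Dbp was at 8.81, 17.4 and 12.2 FPKM at CT0, 22.6, 21.9 and 20.2 at CT4, 22.4, 21.2 and 24.8 at CT8, 11.5, 22.7 and 11.7 at CT12, 16.8, 22.7 and 23.8 at CT16, and 23.9, 27.2 and 18.9 at CT20. Its means were low at CT0 and CT12 and higher at the times between, and its highest mean, 23.3 ± 4.16 at CT20, did not reach the means of ZT8 and ZT12 in LD. The fitted 24 h amplitude of Dbp fell to 0.07 ± 0.14 (log2), and its p-value ranked 13170 among 14496 genes. Ciart, with a 24 h amplitude of 0.07 ± 0.08, was at 5.79, 6.53 and 5.96 FPKM at CT0 and 4.95, 8.00 and 4.82 at CT12, against 7.93, 8.89 and 8.15 at CT4 and 7.32, 9.99 and 7.76 at CT20. It therefore had the same pair of low times as Dbp.

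A component of 12 h, added after these values were seen, described this shape. In Ctrl DD its log2 amplitude was 0.45 for Dbp (unadjusted p = 0.000919) and 0.27 for Ciart (unadjusted p = 0.000945), but the limma adjusted p was 0.493 for both and no gene passed after adjustment (7.11% of genes had an unadjusted p under 0.05). Nfil3 had an unadjusted p of 0.0243 and its 12 h amplitude was 0.21. Without Ctrl DD 12 h replicate 1, in which SCN markers were low, the amplitudes of Dbp and Ciart were 0.42 and 0.25 (adjusted p = 0.297 for both). In Ctrl LD the 12 h component of Dbp was 0.01 (unadjusted p = 0.978), and there 5.79% of genes were under 0.05. In -Trp LD it was 0.15 (unadjusted p = 0.367), where 3.17% of genes were. The files cover 1 cycle of 24 h, and whether such a shape repeats was not tested. Over the 6 time means of Ctrl DD, r between Dbp and Ciart was 0.940 and that between Dbp and Nfil3 -0.759, against 0.975 and -0.780 in -Trp LD and 0.624 and -0.529 in -Trp DD, so that Nfil3 ran against Dbp in sign in all 4 groups.

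In -Trp DD, Ciart alone of the 7 genes passed the exact JTK_CYCLE test (p = 0.00576, 1 after adjustment over all rows), where 1.42% of all rows passed. Its FPKM was 5.28, 4.88 and 5.42 at CT0, 7.79, 7.15 and 5.70 at CT4, 8.50, 7.36 and 6.06 at CT8, 7.58, 7.98 and 8.41 at CT12, 6.47, 9.62 and 9.09 at CT16, and 6.06, 7.42 and 6.42 at CT20. CT0 was low in all 3 libraries, and none of them overlapped with a library of CT16. The limma amplitude was 0.27 ± 0.06 with a peak at 12.8 ± 0.825 h, against 9.71 ± 0.607 h in -Trp LD, and had rank 14 of 14453 genes by p, but no gene passed after adjustment (adjusted p = 0.887 for Ciart, with 0% of genes called and 323 under an unadjusted p of 0.05). Ciart kept its JTK_CYCLE call in 18 of 18 fits without 1 library. Dbp in -Trp DD was at 10.5, 15.0 and 12.9 FPKM at CT0, 22.6, 23.6 and 19.4 at CT4, 19.4, 20.0 and 14.5 at CT8, 11.8, 22.5 and 15.3 at CT12, 19.5, 21.4 and 23.2 at CT16, and 10.6, 20.9 and 14.2 at CT20. No 24 h rhythm of Dbp was called there (amplitude 0.17 ± 0.11, limma unadjusted p = 0.329, adjusted p = 0.999), which does not show that there is none. The unadjusted p of Dbp for a 12 h component was 0.0124, where 10% of genes were under 0.05.

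**Figure D2:**
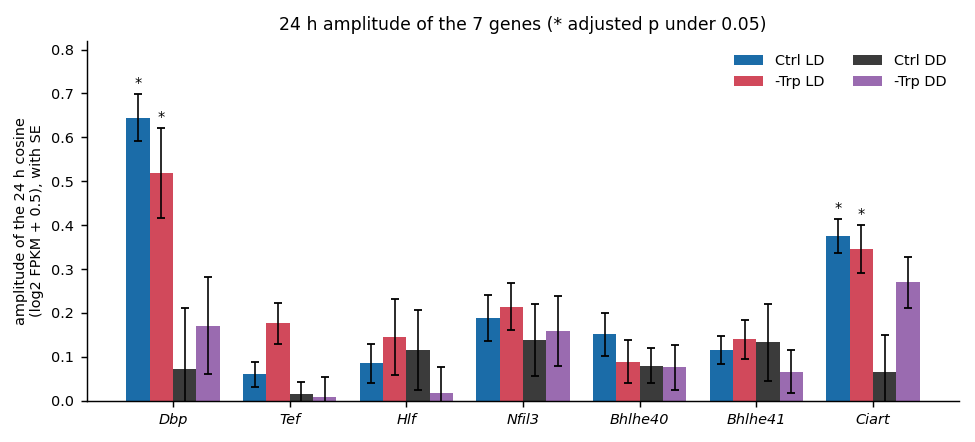
Amplitude of the fitted 24 h cosine (vertical axis, log2 FPKM + 0.5, from 0) of each of the 7 genes in the 4 groups, with bars for the estimate and whiskers for its SE (18 libraries per group); an asterisk marks a limma adjusted p under 0.05. Dbp (0.65 and 0.52) and Ciart (0.38 and 0.35) have asterisks in Ctrl LD and -Trp LD, and no gene has one in DD.

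Whether the rhythms differed between LD and DD was tested directly. On the Ctrl diet, the unadjusted p-values were 0.00175 for Ciart, 0.00285 for Dbp and 0.0478 for Bhlhe41, but after adjustment over 14426 genes none of the 7 passed (limma adjusted p = 0.159, 0.178 and 0.336), where 0.0832% of genes did. On the -Trp diet none passed either (0.0278% of genes did), with unadjusted p-values of 0.0148 for Ciart, 0.0165 for Bhlhe41 and 0.0458 for Tef. Between the diets in DD, Ciart had the smallest unadjusted p of the family, 0.0146 (limma adjusted p = 0.599), and 0.0345% of genes passed. The smaller number of calls in DD is therefore not shown to be a difference in rhythm by the adjusted test. By column name, 3 of the 7 genes passed between the diets in DD (34.7% of all genes did) and 3 between the lightings on the Ctrl diet (72.5%). JTK_CYCLE then called 2 genes (Nfil3 and Bhlhe41) in Ctrl DD, where 27.6% of all rows passed, and 5 in -Trp DD, where 6.68% did.

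At single time points the diets differed for 2 of the 7 genes, both at CT12 in DD, where 8.70% of all genes did. Ciart, at 7.58, 7.98 and 8.41 FPKM in -Trp DD against 4.95, 8.00 and 4.82 in Ctrl DD, was higher by 0.46 ± 0.15 on the log2 scale (limma adjusted p = 0.0468). The Ctrl library at 8.00 FPKM lay within the range of the -Trp libraries. Tef, at 54.0, 63.4 and 50.02 FPKM against 62.7, 69.4 and 69.7, was lower by 0.24 ± 0.08 (adjusted p = 0.0480). Both are near the threshold: Ciart kept its call in 16 and Tef in 8 of 36 fits without 1 library, and both lost it on FPKM as deposited. The Ctrl side includes the library low in SCN markers, in which Ciart was at 4.95 and Tef at 62.7 FPKM, and without it the differences were 0.40 ± 0.16 for Ciart (adjusted p = 0.160) and -0.25 ± 0.09 for Tef (adjusted p = 0.115). At the other times of DD no member was called, and 0.0069%, 0.0967%, 0.0069%, 0% and 0.0138% of genes were at CT0, CT4, CT8, CT16 and CT20. In LD none of the 7 genes differed between the diets at any time point, where 0.0211% of genes did at ZT12, 0.0282% at ZT16 and 0% at the other times. By column name the diet comparisons at 0 to 12 h set LD libraries of the first order against DD libraries of that order. Then 6 cases passed in LD and 8 in DD, all at 0 to 12 h, where 49.0% to 59.6% of all genes passed as well. Among them Dbp was lower on the -Trp diet at 4 h in LD by 1.19 ± 0.26 (log2, adjusted p = 0.000283) and higher at 4 h in DD by 0.99 ± 0.19 (adjusted p = 7.68e-05), and Nfil3 was lower at 8 h in LD by 0.85 ± 0.17 (adjusted p = 0.000145) and higher at 8 h in DD by 0.77 ± 0.15 (adjusted p = 0.000114). Ciart was then higher at 12 h in LD and lower, by 0.35 ± 0.13, at 12 h in DD (adjusted p = 0.0225).

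**Figure D3:**
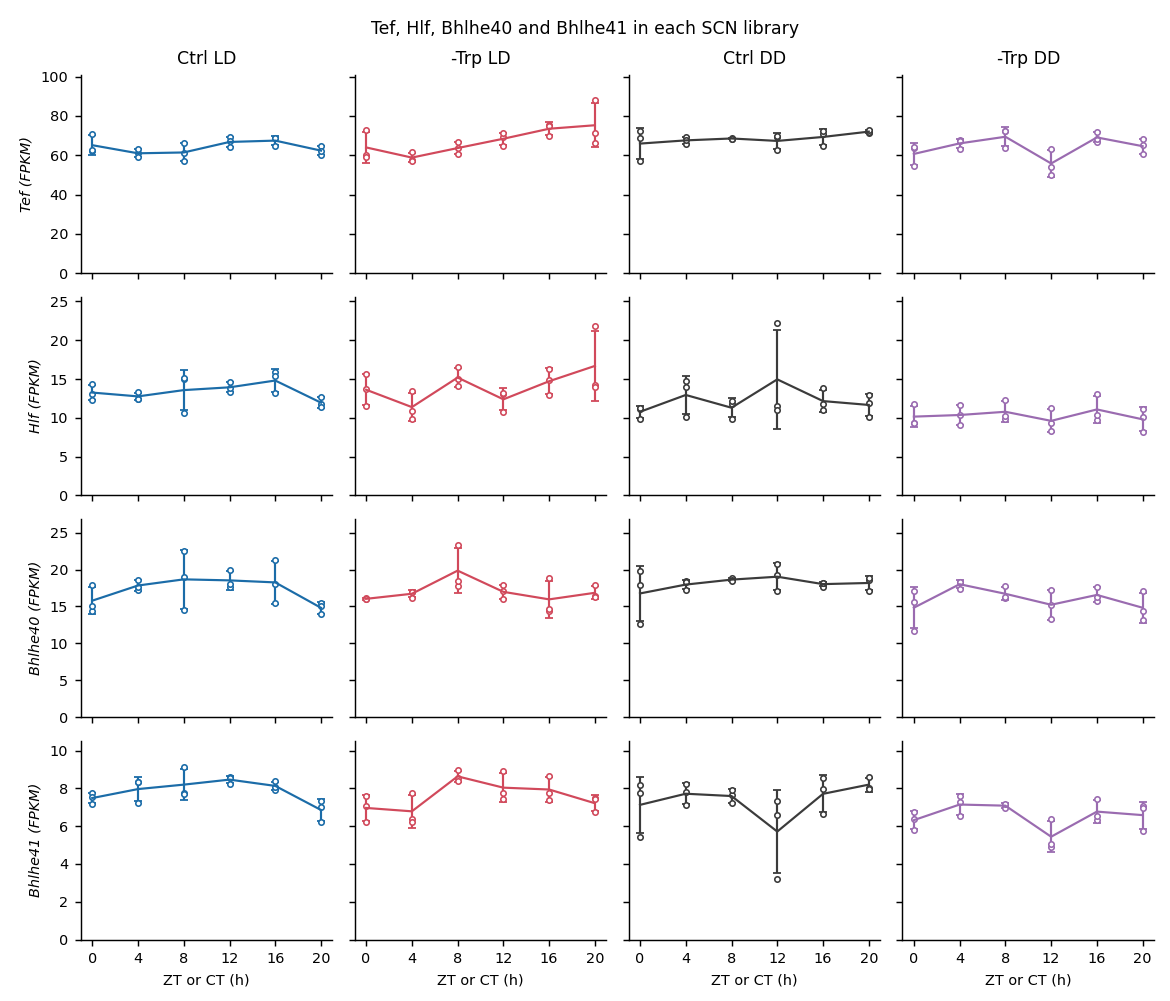
FPKM (vertical axes, from 0) of Tef, Hlf, Bhlhe40 and Bhlhe41 against ZT or CT in hours in the 4 groups, with open points for libraries, lines through the means and bars of 1 SD (n = 3 per time). The curves are flatter than those of Dbp. The single high Hlf points, 22.3 FPKM in Ctrl DD at 12 h and 21.9 FPKM in -Trp LD at 20 h, and the low Bhlhe41 point of 3.23 FPKM in Ctrl DD at 12 h belong to the libraries with low SCN markers.

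Averaged over the day, the -Trp diet in LD left no called difference in the level of any of the 7 genes, where 1.11% of genes were called (80 higher and 77 lower, or 41 and 89 on FPKM as deposited). The log2 differences (-Trp minus Ctrl) were 0.08 ± 0.04 for Tef (95% interval 0.0025 to 0.17, adjusted p = 0.366), 0.03 ± 0.08 for Dbp (-0.14 to 0.20) and 0.06 ± 0.05 for Ciart (-0.03 to 0.16). For Nfil3, Bhlhe40 and Bhlhe41 the intervals lay within -0.10 and 0.12. The interval of Hlf reached 0.20. By column name Nfil3 was lower on the -Trp diet in LD by 0.30 ± 0.08 (adjusted p = 0.00225), where 65.5% of all genes passed, and none of the other 6 did.

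In DD the -Trp diet went with a lower level of Bhlhe40, the 1 gene of 7 that passed. Since 13.4% of genes did (6.19% lower), 1 call among 7 is close to the background. Bhlhe40 ranged from 12.7 to 20.7 FPKM (median 18.3) in the 18 Ctrl DD libraries and from 11.7 to 18.4 (median 16.3) in the 18 -Trp DD libraries, so that the groups overlapped widely. The log2 difference was -0.17 ± 0.05 (limma adjusted p = 0.0206), a fold of 0.891, and it passed in every fit without 1 library. Hlf (-0.22 ± 0.08, adjusted p = 0.0564), Tef (-0.09 ± 0.03, adjusted p = 0.0713) and Bhlhe41 (-0.13 ± 0.06, adjusted p = 0.138) did not pass. Bhlhe41 did so without Ctrl DD 12 h replicate 1 (adjusted p = 0.00890), and Hlf in 10 of 36 fits without 1 library (the fit without that library among them). By column name the sign of the Bhlhe40, Bhlhe41 and Hlf differences turned, to 0.01, 0.07 and 0.17. In that order Bhlhe40 did not pass, while Dbp (0.33 ± 0.11, adjusted p = 0.00678), Nfil3 (0.26 ± 0.07, adjusted p = 0.00307) and Hlf (adjusted p = 0.0137) did, as did 70.8% of all genes.

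Tef was the 1 gene of 7 that passed the test of a diet effect on the daily level that differs between LD and DD. Since 7.55% of genes passed, 1 call among 7 is close to the background. Tef was at 57.0 to 70.9 FPKM (median 63.5) in Ctrl LD and 57.1 to 87.8 (median 66.5) in -Trp LD, but at 56.9 to 72.9 (median 69.1) in Ctrl DD and 50.02 to 72.3 (median 64.6) in -Trp DD. It was thus higher on the -Trp diet in LD by 0.08 ± 0.04 and lower in DD by 0.09 ± 0.03 (log2), and neither difference passed on its own. The interaction, a test added after the values were seen, was -0.17 ± 0.05 (limma adjusted p = 0.0245). It was -0.15 without both libraries low in SCN markers (adjusted p = 0.0271). The same interaction was -0.29 ± 0.10 for Hlf (adjusted p = 0.0662) and -0.17 ± 0.07 for Bhlhe40 (adjusted p = 0.101), which did not pass. Its size was smallest in Nfil3 (-0.02 ± 0.09). By column name Tef did not pass (-0.08 ± 0.05, adjusted p = 0.116). The interaction was then positive and passed for Nfil3 (0.56 ± 0.09), Dbp (0.52 ± 0.13), Hlf (0.35 ± 0.10) and Bhlhe41 (0.17 ± 0.07, adjusted p = 0.0320), where 78.9% of all genes passed, and for Bhlhe40 and Ciart it was -0.06 and -0.0035.

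Between DD and LD most genes differed in level: 78.8% of all genes passed with the Ctrl diet and 79.5% with the -Trp diet, so a call of a member is close to the background, and the lighting cannot be told apart from the range of the summed FPKM. Within that background, Nfil3 was lower in DD on both diets. It was at 3.86 to 6.50 FPKM (median 4.75) in Ctrl LD and 2.42 to 5.28 (median 3.14) in Ctrl DD, and at 3.67 to 6.95 (median 4.88) in -Trp LD and 2.44 to 5.01 (median 3.05) in -Trp DD. The differences were -0.40 ± 0.07 (limma adjusted p = 3.74e-06) and -0.42 ± 0.08 (adjusted p = 8.08e-06), about a 0.75-fold level. Dbp was also lower in DD, by 0.27 ± 0.12 on the Ctrl diet (adjusted p = 0.0383, lost in 13 of 36 fits without 1 library, among them that without Ctrl DD 12 h replicate 1, with 0.0689) and by 0.42 ± 0.12 on the -Trp diet (adjusted p = 0.00179). Tef and Bhlhe40 were higher in DD on the Ctrl diet, by 0.20 ± 0.03 (adjusted p = 5.42e-08) and 0.17 ± 0.05 (adjusted p = 0.00128), and on the -Trp diet their differences were 0.03 ± 0.05 and 0.00063 ± 0.05. Under 8 settings other than a library left out, the column names among them, the Ctrl calls of Dbp and Bhlhe40 each held in 6 and that of Tef in 7. Hlf and Bhlhe41 were lower in DD on the -Trp diet, by 0.32 ± 0.07 (adjusted p = 0.000116) and 0.11 ± 0.05 (adjusted p = 0.0310, lost in 5 of 36 fits without 1 library). Without -Trp LD 20 h replicate 3 the Hlf difference was -0.28 ± 0.06. The 5 oligodendrocyte markers also had lower sums in DD, with medians of 1913 FPKM in -Trp LD and 1014 in -Trp DD (2076 and 1294 with the Ctrl diet), and their part in the Hlf difference was not tested. For Ciart neither difference passed (0.12 ± 0.07, 95% interval -0.03 to 0.27, and -0.01 ± 0.07, -0.14 to 0.13). On FPKM as deposited the median of all genes moved from -0.02 to -0.11 on both diets. By column name Nfil3 (0.38), Dbp (0.29), Hlf (0.09) and Bhlhe41 (0.02) on the -Trp diet, and Tef (-0.09) and Bhlhe40 (-0.08) on the Ctrl diet, turned their sign. The calls were then Hlf on the Ctrl diet (-0.26 ± 0.07, adjusted p = 0.0379; 5.65% of all genes passed) and Nfil3, Tef, Dbp and Bhlhe40 on the -Trp diet (78.0%).

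**Figure D4:**
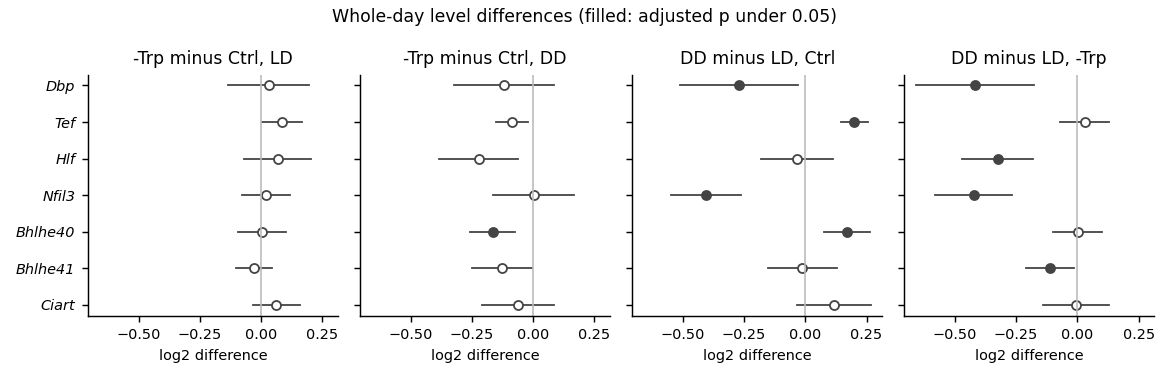
Differences in the daily level (horizontal axes, log2, with 95% intervals) of the 7 genes between the diets in LD and in DD and between DD and LD on each diet, from 18 libraries per group; filled points have a limma adjusted p under 0.05. Bhlhe40 is filled for the diet in DD (-0.17), and Nfil3 is filled and negative in both comparisons of DD with LD (-0.40 and -0.42).

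Libraries taken at the same time also differed from each other, and Dbp and Ciart did so together. With each library expressed as its log2 deviation from the mean of its 3, r between Dbp and Ciart was 0.802 (Ctrl) and 0.683 (-Trp) in LD and 0.723 (Ctrl) and 0.441 (-Trp) in DD, over 18 libraries each, higher than the r of Dbp with 91.4% to 99.7% of all genes in the respective group. Nr1d1, another E-box gene and the gene of REV-ERBα, had r of 0.718, 0.868, 0.497 and 0.552 with Dbp in the same order. Arntl, which is known to peak opposite to Dbp, had r of -0.671 in Ctrl DD and -0.670 in -Trp DD, but 0.180 and -0.0122 in the LD groups. Nfil3 was likewise opposite to Dbp in DD, with r of -0.538 and -0.399, and had no steady sign in LD (0.234 and -0.241). Bhlhe40 went with Dbp in DD (0.676 and 0.647) more than in LD (0.179 and 0.235), and this difference was not tested. These values describe libraries that share their RNA and scaling, and no p is given. The spread of Dbp within time points (log2 SD) was 0.175 in Ctrl LD and 0.303 to 0.333 in the other groups, where the median gene had 0.148 and 0.150 to 0.172.

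The members were also set against the cell markers of the libraries. Hlf was highest of all 72 libraries in the 2 with low SCN markers, at 22.3 FPKM in Ctrl DD 12 h replicate 1 (11.5 and 11.1 in the others of that time) and 21.9 FPKM in -Trp LD 20 h replicate 3 (14.2 and 13.9). Over all libraries, r of its within-time deviations with those of the SCN marker sum was -0.505, and -0.268 without these libraries. Most of that sum is Avp, here and in the values of r with SCN markers below. With the 5 oligodendrocyte markers r was 0.525, and 0.438 without them. Bhlhe41 went the other way, at 3.23 FPKM in Ctrl DD 12 h replicate 1 against 7.33 and 6.58, and r with the SCN markers was 0.561, or 0.464 without the 2 libraries. For Dbp, Tef, Nfil3, Bhlhe40 and Ciart, r with the SCN markers was between -0.04 and 0.205, and between 0.0668 (Nfil3) and 0.303 (Dbp) without the 2 libraries. The part of these markers' cell types in the differences of Hlf and Bhlhe41 between groups was not tested.

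**Figure D5:**
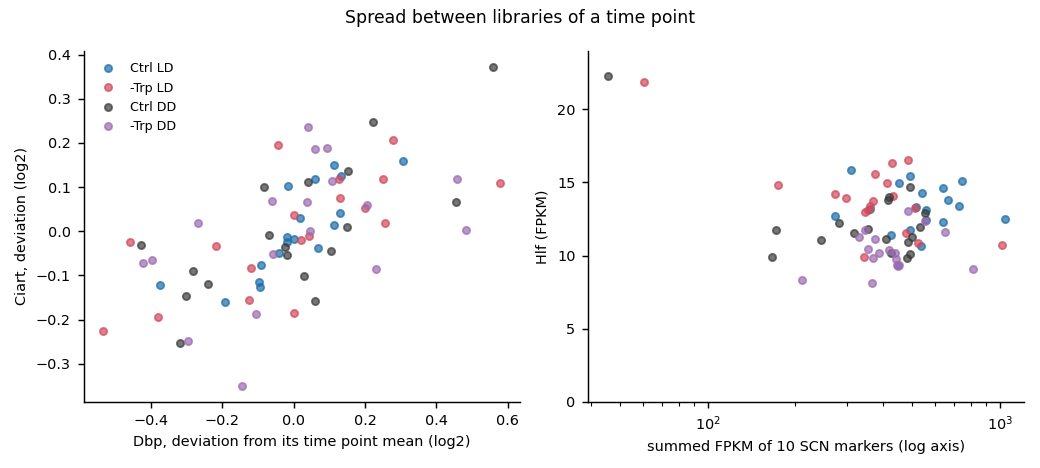
The left panel plots the log2 deviation of Ciart from the mean of its time point against that of Dbp in the 72 libraries, coloured by group, and the right panel Hlf in FPKM against the summed FPKM of 10 SCN markers (log axis). The deviations of Dbp and Ciart go together (r from 0.441 to 0.802 within groups), and the highest Hlf points, 22.3 and 21.9 FPKM, are those of lowest SCN marker sums, 45.7 and 60.6.

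The clock genes upstream of the family had rhythms of smaller amplitude than Dbp and Ciart in Ctrl LD, where the highest of 17 amplitudes was that of Nr1d1, 0.26. Of 17 core clock genes, 7 passed JTK_CYCLE in Ctrl LD (Arntl, Cry1, Cry2, Nr1d1, Per1, Per3 and Rora), where 7.11% of all rows did. In -Trp LD 2 passed (Arntl and Nr1d1), where 7.42% of all rows did. None passed in Ctrl DD or -Trp DD, where 4.92% and 1.42% of all rows did. Nr1d1 had a limma amplitude of 0.26 ± 0.04 with a peak at 7.09 ± 0.644 h in Ctrl LD (adjusted p = 0.0187) and of 0.25 ± 0.04 at 7.44 ± 0.583 h in -Trp LD (adjusted p = 0.00423), in both ahead of Dbp. Arntl peaked at 22.4 ± 0.838 h in -Trp LD (amplitude 0.28 ± 0.06, adjusted p = 0.0424), nearer to Nfil3 than to Dbp. None of the 17 genes passed the test of a rhythm difference between diets or lightings. In level, Per1 was higher on the -Trp diet in LD by 0.21 ± 0.05 (adjusted p = 0.0423) and Cry2 lower in DD by 0.14 ± 0.04 (adjusted p = 0.0290). Between DD and LD, 12 of 17 passed on the Ctrl diet (11 higher and 1 lower in DD), where 78.8% of all genes did. On the -Trp diet 16 of 17 passed (11 higher and 5 lower), where 79.5% of all genes did.

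Of 7 other clock output genes, 3 passed JTK_CYCLE in Ctrl LD: Prok2, which encodes a secreted SCN peptide, Tspan4 and Usp2. Tspan4 was also called in -Trp LD, and its limma amplitudes were 0.24 ± 0.05 at 11.1 ± 0.731 h and 0.32 ± 0.06 at 10.6 ± 0.705 h (adjusted p = 0.0397 and 0.0140). Nampt was called in Ctrl DD, and none of the 7 in -Trp DD. Pdxk, a PAR-bZIP target that makes pyridoxal phosphate, was higher on the -Trp diet in LD by 0.13 ± 0.03 (adjusted p = 0.0117). Among 6 bZIP relatives of Nfil3, JTK_CYCLE called none in Ctrl LD, 3 in -Trp LD (Cebpa, Cebpd and Cebpg), none in Ctrl DD and Atf4 in -Trp DD. Cebpd had a limma amplitude of 0.35 ± 0.07 in -Trp LD with a peak at 15.1 ± 0.717 h (adjusted p = 0.0159). Of 6 relatives of Bhlhe40 and Bhlhe41, Heyl was called in -Trp LD and Hes1 and Hey1 in Ctrl DD, and Hey1 was lower on the -Trp diet in DD by 0.14 ± 0.05 (adjusted p = 0.0494). Of 11 immediate early genes, Arc, Egr2 and Fosl2 were called in -Trp LD and none in the other groups. Between DD and LD, the limma test of the level called 5 of the 7 other outputs, 5 of the 6 bZIP relatives, 4 of the 6 relatives of Bhlhe40 and Bhlhe41 and 4 of the 9 immediate early genes tested on the Ctrl diet, and 5, 6, 5 and 8 of them on the -Trp diet. The called genes higher in DD numbered 1, 0, 1 and 1 on the Ctrl diet and 1 in each list on the -Trp diet. Since 78.8% and 79.5% of all genes passed, these counts are not read as results about the lists.

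The genes most like each member were found by r over the 24 time means of the 4 groups, among 13241 genes whose mean FPKM was 1 or more. Ciart was most like Cirbp, a cold-inducible RNA-binding protein (r = 0.814), and Dbp most like Nom1, Hmgb3 and Eif2b3 (0.9, 0.886 and 0.862). Nfil3 was most like Smarce1 (0.944), Tef most like Tns3 (0.908), Hlf most like Foxk2 (0.880), Bhlhe40 most like Man2b1 (0.811) and Bhlhe41 most like Ssx2ip (0.8). No member was among the 3 genes most like another member, and the likeness includes the difference between LD and DD that most genes shared.

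The annotation places other genes over some members on the opposite strand. Sphk2 (mean 10.7 FPKM, 6.10 to 19.1) overlaps the 3′ end of Dbp, and its limma amplitude in Ctrl LD was 0.10 ± 0.05 (adjusted p = 0.482). A pair of noncoding antisense genes, C920021L13Rik over Ciart and 0610040F04Rik over Bhlhe40, were at means of 0.251 and 0.597 FPKM. The kit keeps strand, but the strand setting of the counting is not stated, so reads shared between Dbp and Sphk2 could not be assigned here.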

How the data were processed

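Per the labels, stranded poly(A) libraries of the SCN were sequenced, and the submitters' processing notes name Trimmomatic, TopHat, Cufflinks and mm10 (versions not given in the sources used here). The authors deposited FPKM per gene and library, 1 table for each diet and lighting, and read numbers were not used here, so the depth is unknown. Every column was used. JTK_CYCLE was run anew on FPKM as deposited (24 h, 6 lags, exact null distribution, p under 0.05; Python 3.11.15, numpy 2.4.6, scipy 1.17.1). limma 3.58.1 (R 4.3.3) was fitted to log2(FPKM + 0.5) of values scaled by median-of-ratios factors of the 72 libraries, where a gene's mean FPKM in a comparison was 0.5 or more, with Benjamini-Hochberg adjustment over all genes at 0.05. Log2 differences understate changes of low genes. Both were tested on simulated data. Members and gene lists were chosen with earlier results of these data known. Genes named outside the family are the called genes of 5 fixed lists, the 3 most alike by r, and genes overlapping a member; 9 marker lists were summed. Diet by lighting and 12 h terms were added after the values were seen. Replicate numbers were not taken to pair libraries of different groups (median r of same-numbered deviations -0.0135 to 0.175, with a hint of pairing given below). Alternatives were the columns as named, other pseudocounts, filters, periods and scaling, 1 fit for all libraries, a replicate block and leaving out each library.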

Additional observations from a re-analysis of the deposited data

Results flagged for a closer look

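The effect of the -Trp diet on the daily level of Tef, a PAR-bZIP activator, differed between the lightings: DD minus LD was -0.17 ± 0.05 on the log2 scale (limma adjusted p = 0.0245, a test added after the values were seen). On the -Trp diet Tef had a mean of 67.2 FPKM in LD against 64.0 on the Ctrl diet, and of 64.2 FPKM in DD against 68.4 (18 libraries each). The adjusted p was between 0.0230 and 0.0314 with either or both libraries low in SCN markers, or -Trp DD 4 h replicate 2, left out. By column name the value was -0.08 ± 0.05 and did not pass (adjusted p = 0.116), with Tef at 67.3 FPKM on the -Trp diet in LD against 69.0 on the Ctrl diet, and at 63.4 FPKM in DD against 64.1.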

How the results depend on the processing

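The order of the columns moved the results most. With the columns as named, the number of the 7 genes that passed JTK_CYCLE was 2 for Ctrl DD, 0 for -Trp LD and 5 for -Trp DD. Of all rows, 27.6%, 2.48% and 6.68% passed there. The number that passed the limma cosine was 2, 0 and 2 in these groups, for which the share of all genes is not given here. The rhythm difference then passed for 4 genes between diets in LD, 3 between diets in DD and 3 between lightings on the Ctrl diet (52.0%, 34.7% and 72.5% of all genes). The level difference passed for 1, 3 and 1 genes in these comparisons (65.5%, 70.8% and 5.65% of all genes). Diets differed at a time point in 6 cases in LD and 8 in DD, all at 0 to 12 h, where 49.0% to 59.6% of all genes passed. The level difference between diets in DD became 0.015 for Bhlhe40, 0.067 for Bhlhe41 and 0.17 for Hlf. That between lightings became -0.0798 for Bhlhe40 and -0.086 for Tef on the Ctrl diet, and 0.019 for Bhlhe41, 0.29 for Dbp, 0.094 for Hlf and 0.38 for Nfil3 on the -Trp diet. Ciart at 12 h in DD became -0.35. The interaction of diet and lighting, for which this order was added after the data were seen, passed for 4 genes and for 78.9% of all genes. It became 0.52 for Dbp, 0.35 for Hlf, 0.56 for Nfil3 and 0.17 for Bhlhe41, and -0.08 for Tef, which no longer passed. By name, diet comparisons at 0 to 12 h set LD libraries of the first order against DD libraries of that order. Which order is right was not tested. Of 15 level differences whose 95% interval holds 0, 8 changed sign with the columns as named, 4 on FPKM as deposited and 6 with some library left out.

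Benjamini-Hochberg adjustment of JTK_CYCLE over all rows left 2 genes (Dbp and Ciart) for Ctrl LD and 0 for both -Trp LD and -Trp DD, and over genes whose mean FPKM was 0.5 or more 2, 1 and 0. With 1 fit for all 72 libraries, 2 genes passed for the diet in DD. At single time points in DD, 1 case passed with no filter and 0 on FPKM as deposited. With 1 library left out, the number of genes passing JTK_CYCLE was 2 to 5 in Ctrl LD and 1 to 2 in -Trp DD, the limma cosine 1 to 3 in -Trp LD, the level between diets in DD 1 to 3, and the diets at a time point in DD 0 to 3. Under settings other than a library left out, 670 single-gene values kept their direction and side of the threshold, 27 came to pass and 32 ceased to.

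With the replicate number as a block, the exact JTK_CYCLE test called 5 genes in Ctrl LD (Bhlhe40 in addition, p = 0.0147), and no other call of the 7 genes changed. Same-numbered libraries of Ctrl DD and -Trp DD had r over 0.1 in 12 of 18 pairs (median 0.175). Those of -Trp LD and -Trp DD did in 10 of 18 (median 0.121), which is a hint of pairing in the data. The medians for other numbers, -0.0917 and -0.0663, add nothing to this hint. Deviations from a shared time mean cancel out, so those medians must lean the opposite way. The numbers were not taken to pair libraries, and pairing itself was not tested. The depth is unknown, so no counting error could be given for any of the 7 genes.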
